A study of Rattus norvegicus with 18 samples.

Results

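The comparison described here is that of whole rat lung 5 h after birth (P1) with lung of fetal day 22 (FD22), measured as total RNA. It rests on 6 of the 18 arrays of the study, chosen by their titles: 3 of P1 total RNA and 3 of FD22 total RNA, each array from a lysate of a separate litter. All animals were Wistar rats, the labels name no drug and no genetic change, and lungs were excised and snap-frozen. Fetuses were taken by Cesarean section while newborns were born vaginally, so birth, air breathing, delivery route and the age difference cannot be told apart. The other 12 arrays, total RNA of fetal day 19 (FD19) and RNA from large polysomes at all 3 stages, entered the statistical fit to estimate the spread and are quoted only where stated. Values are signals of the Affymetrix Rat Genome 230 2.0 array, in arbitrary units per probe set.

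At birth the lung turns from an organ that secretes liquid into its lumen to one that absorbs liquid and exchanges gas. Epithelial sodium uptake replaces chloride secretion, oxygen in the tissue rises, pulmonary blood flow increases steeply and the airspaces are stretched by breathing. The newborn is also cut off from placental glucose and moves to milk fat and its own stores. Immediate early genes are transcription factors and signalling genes whose transcription starts within minutes of a stimulus without new protein synthesis. Each of these processes has known marker genes, and the results below are ordered by them.

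The 6 arrays had median signals of 66.2, 69.3 and 73.5 at FD22 and 62.6, 66.1 and 65.1 at P1. Lung identity was as labelled: the surfactant protein gene Sftpc ranged from 5301 to 9139 over the 6 arrays, the club cell gene Scgb1a1 from 5002 to 6635 and the type I cell gene Ager from 1214 to 1659. In 1 fetal lysate liver genes were also high. Albumin (Alb) had signals of 103, 5662 and 147 at FD22 and 81.8, 96.4 and 111 at P1, and the fetal liver gene Afp had 5.5, 1462 and 4.2 at FD22 and 7.7, 10.8 and 4.8 at P1. The summed signal of 4 liver genes (Alb, Afp, Ttr and Serpina1) was 204, 8539 and 336 at FD22 and 179, 233 and 252 at P1, so FD22 replicate 2 stood far above the other 5 arrays. Of the 23 tested markers of other tissues, 0 were called by limma, with 1 higher and 2 lower at an unadjusted p under 0.05. Without FD22 replicate 2, and with the replicate number as a block, 1 of them was called lower. The summed signal of 13 heart and skeletal muscle genes was 3266, 1539 and 4361 at FD22 and 2633, 1547 and 1684 at P1, which overlapped. The part that these other tissues play in the differences below was not tested. The total and the counts of many lists are therefore given also without FD22 replicate 2. In whole lung, fewer cells of a type and less RNA per cell cannot be told apart.

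Between FD22 and P1, 861 of 21675 probe sets were called (3.97%, adjusted p under 0.05 by limma), 479 higher and 382 lower at P1. Centring the arrays on their medians gave 637 higher and 260 lower. By gene, taking the brightest probe set, 304 of 11590 genes were higher (2.62%) and 268 lower (2.31%), with median differences of 0.76 and -0.78 on the log2 scale. Among these, 76 rose and 63 fell by more than 2-fold, and 14 rose but only 1 (Veph1) fell by more than 4-fold. The median difference over all genes was -0.05 with a median SE of 0.19. In total 572 genes were called (4.94%). FD22 and P1 signals were fully separated, with no overlap of 3 against 3 arrays, for 23.9% of all genes (10.2% higher and 13.7% lower) and for 20.8% of all probe sets (9.41% higher and 11.3% lower). Of the 572 called genes 569 were so separated. Without FD22 replicate 2, 467 probe sets were called, and without P1 replicate 3 or P1 replicate 1 the counts were 447 and 465. Of the 572 genes, 182 were called whichever single lysate was left out, 118 higher and 64 lower. A called gene given below with its fold change belongs to these unless it is said which lysate its call needed. Of the called genes named by rule, 37 have other tested probe sets. For 25 of these, Fpgs, Fam107a, Ppp1r3b, Trpc2, Bmp2, Bmp5, Idi1, Crem and Cebpa among them, no other probe set was called, and for 12 at least 1 was called the same way. None was called the opposite way. Fold changes are on the scale of log2(signal + 5.5), which understates the change of dim genes.

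**Figure D1:**
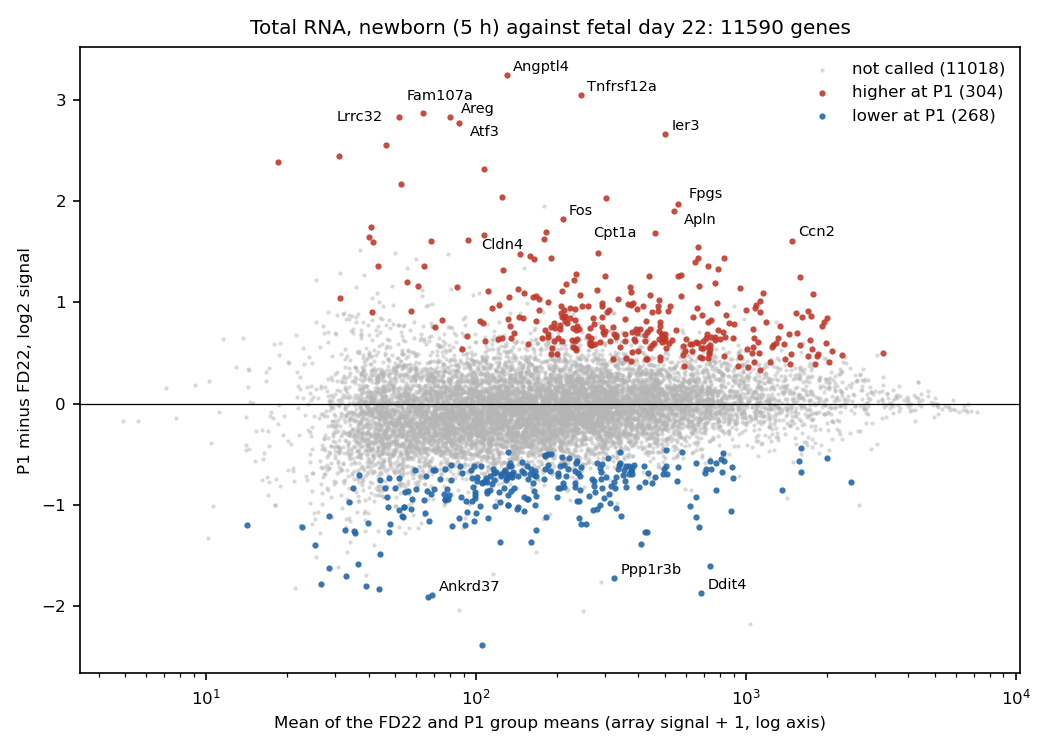
Difference between P1 and FD22 in total RNA (log2, vertical axis) against the mean signal of both stages plus 1 (log axis) for 11590 genes, 1 point each, with 304 called higher in red, 268 called lower in blue and the others in grey. Rises reach 3.24 (Angptl4), whereas most falls stay above -2.

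Many immediate early transcription factors were higher after birth. Of 34 tested, 12 rose and 0 fell (18 higher and 2 lower at an unadjusted p under 0.05), and their median difference was 0.37 against -0.05 for all genes. This and the other lists were chosen with earlier results of these data known, so their counts are a description and no test. All list counts stand beside 2.62% of all genes called higher and 2.31% called lower. Among 10 subunits of AP-1, the dimeric factor that binds stress and growth response elements, and of the related small Maf and ATF proteins, 6 rose: Atf3, Fosb, Fos, Maff, Junb and Mafk. The others were the zinc finger factors Egr1, Klf4 and Klf10, the orphan receptor Nr4a1, the cAMP-responsive Crem and the stress factor Atf4. Left-out lysates changed the count to between 8 to 12, with 10 without FD22 replicate 2 and 8 without FD22 replicate 3 or P1 replicate 3. Without FD22 replicate 3, 1 member was called lower.

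Signals of Atf3, a factor induced by many kinds of cell stress, were 27, 19 and 9.5 at FD22 and 162, 181 and 117 at P1. The newborn arrays all lay far above the fetal ones, a rise of 2.77 ± 0.26 (SE; 6.84-fold, adjusted p = 6.01e-06). For Fos the signals were 118, 79.1 and 72 at FD22 and 283, 285 and 416 at P1, a rise of 1.82 ± 0.24 (SE; 3.52-fold, adjusted p = 0.000209). Fosb, its near relative, was very dim before birth, with 3.3, 7.3 and 6.0 at FD22 and 46.7, 66.9 and 50.0 at P1, and rose by 2.45 ± 0.46 (SE; 5.45-fold, adjusted p = 0.00446). That call was lost when only the arrays numbered 2 and 3 were used (adjusted p = 0.0776 for Fosb). Jun, the usual partner of Fos, had 1113, 1026 and 941 at FD22 and 1219, 1383 and 1329 at P1, with a difference of 0.35 ± 0.14 that was not called (adjusted p = 0.182). Jund, with a difference of 0.03 ± 0.12, was not called either (adjusted p = 0.936).

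Egr1, a zinc finger factor induced by serum and stretch, gave 233, 201 and 243 at FD22 and 419.6, 622 and 503 at P1, without overlap, and rose by 1.15 ± 0.19 (SE; 2.23-fold, adjusted p = 0.00135). Its relatives Egr2 and Egr3 were not called, with differences of 0.33 ± 0.28 and 0.22 ± 0.25. Egr4 was not called either, but its newborn arrays all lay below the fetal ones, with 34, 57.3 and 47.4 at FD22 and 13.4, 32.5 and 31.5 at P1 and a difference of -0.77 ± 0.41 (adjusted p = 0.357). Nr4a1, the orphan receptor also named Nur77, gave 77.2, 57.7 and 114 at FD22 and 279, 341 and 212 at P1 and rose by 1.70 ± 0.29 (SE; 3.25-fold, adjusted p = 0.00211). Klf4, a factor of epithelial and vascular cells, was already at 544, 396 and 462 before birth and reached 1244, 957 and 1019 after it, a rise of 1.19 ± 0.18 (SE; 2.29-fold, adjusted p = 0.00073). Klf2, its relative that responds to blood flow, had 1038, 730.4 and 861 at FD22 and 1403, 1168 and 1241 at P1 and missed the threshold (0.54 ± 0.16, adjusted p = 0.0615). The small Maf genes Maff and Mafk rose by 1.15 ± 0.20 (SE; 2.22-fold, adjusted p = 0.0027) and 0.90 ± 0.16 (SE; 1.86-fold, adjusted p = 0.0032). Junb rose by 0.94 ± 0.22 (SE; 1.92-fold, adjusted p = 0.021), but was not called without FD22 replicates 2 or 3 or P1 replicates 1 or 3 (adjusted p = 0.0569 to 0.113). Crem was not called without FD22 replicate 3 or P1 replicate 3 (adjusted p = 0.0844 to 0.116), and Atf4 was not called without FD22 replicates 2 or 3 or P1 replicates 1, 2 or 3 (adjusted p = 0.0866 to 0.186).

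Of 13 other early response genes, 3 rose and 0 fell (6 and 1 at an unadjusted p under 0.05), the same count in each of the 6 fits that left out 1 lysate. Ier3, an early response gene that affects cell survival, had the smallest p of any listed gene. Its signals were 157, 131 and 115 at FD22 and 825, 950.2 and 838 at P1, a rise of 2.66 ± 0.19 (SE; 6.31-fold, adjusted p = 2.97e-07). Gem, a small GTPase that restrains calcium channels, gave 94.1, 60.3 and 69.1 at FD22 and 205, 228 and 210.3 at P1 and rose by 1.48 ± 0.20 (SE; 2.79-fold, adjusted p = 0.000237). Rhob, which encodes a short-lived small GTPase, rose by 0.69 ± 0.11 (SE; 1.61-fold, adjusted p = 0.0014) from a high fetal level, 1312, 1047 and 963 at FD22 and 1821, 1669.9 and 1829.5 at P1.

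**Figure D2:**
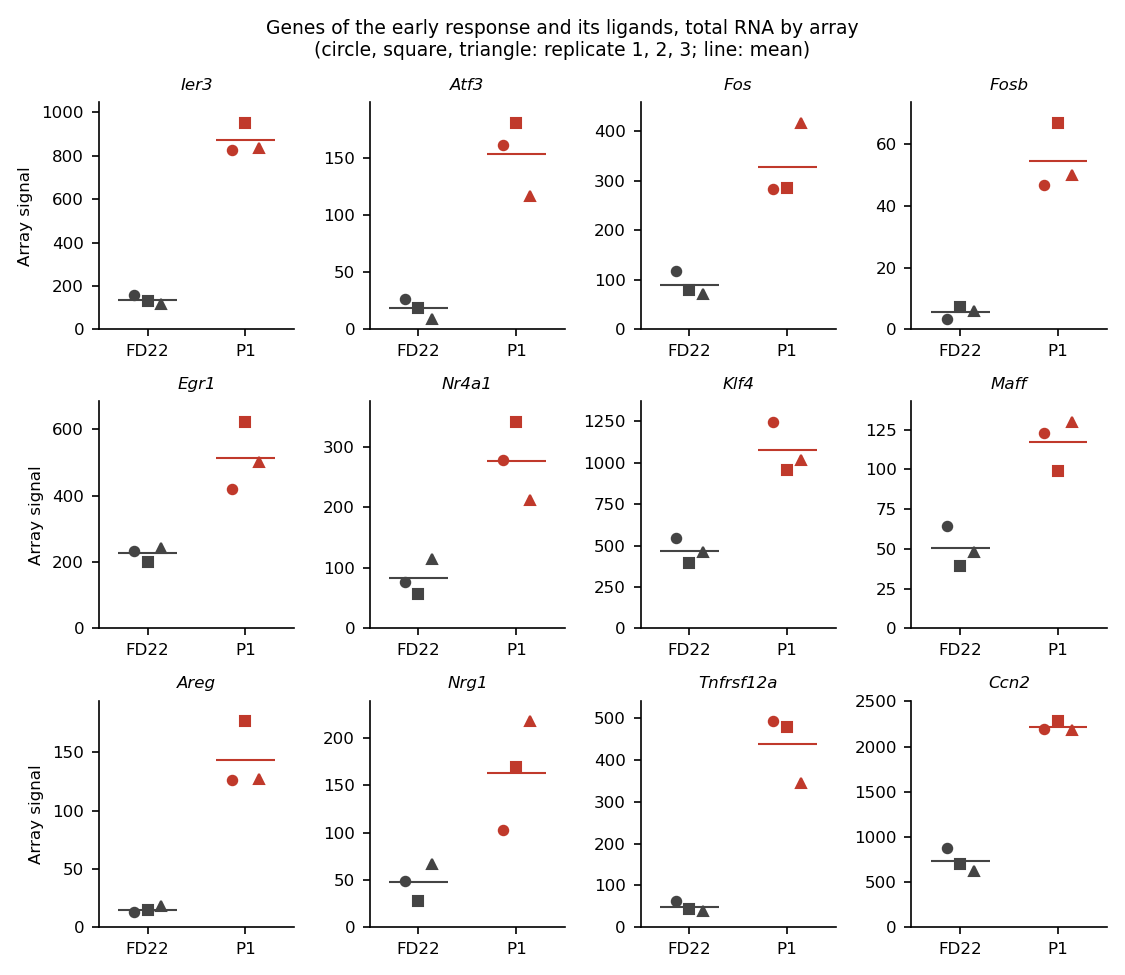
Array signal (vertical axis, linear, from 0) of 12 genes in total RNA at FD22 (grey) and P1 (red), with 1 symbol per replicate and a line at the mean of 3. In all 12 the newborn symbols lie above the fetal ones, from Fosb at up to 66.9 to Ccn2 at up to 2281. The 12 were picked among called rises without overlap, so this separation follows from the choice. Members that were not called, such as Jun, Egr2 and Ccn1, are not drawn.

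The RefSeq promoter table for the GRCr8 assembly held a window of 250 bases ending at the annotated gene start for 5 of the 15 called genes of these 2 early lists: Egr1, Rhob, Maff, Junb and Atf4. The windows of 4 are shown because these genes rose together and because short response elements can be read in them. Capitals mark TGACG on either strand (CGTCA on the strand shown), the core of the cAMP response element, the CArG box, to which serum response factor binds, and TATAAA in the forward direction. They lie at chr18:26736828-26737077 (Egr1, plus strand), chr7:112792537-112792786 (Maff, plus), chr19:40080876-40081125 (Junb, plus) and chr6:37085205-37085454 (Rhob, minus).
Egr1: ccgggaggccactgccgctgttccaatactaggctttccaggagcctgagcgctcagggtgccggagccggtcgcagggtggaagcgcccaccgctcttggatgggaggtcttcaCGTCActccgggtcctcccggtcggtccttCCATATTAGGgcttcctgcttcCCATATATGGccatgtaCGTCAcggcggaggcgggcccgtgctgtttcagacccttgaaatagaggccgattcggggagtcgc
Maff: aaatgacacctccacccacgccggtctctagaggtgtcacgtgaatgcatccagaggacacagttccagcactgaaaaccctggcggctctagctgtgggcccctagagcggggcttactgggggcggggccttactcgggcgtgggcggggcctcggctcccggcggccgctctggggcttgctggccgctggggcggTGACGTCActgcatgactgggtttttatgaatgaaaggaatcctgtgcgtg
Junb: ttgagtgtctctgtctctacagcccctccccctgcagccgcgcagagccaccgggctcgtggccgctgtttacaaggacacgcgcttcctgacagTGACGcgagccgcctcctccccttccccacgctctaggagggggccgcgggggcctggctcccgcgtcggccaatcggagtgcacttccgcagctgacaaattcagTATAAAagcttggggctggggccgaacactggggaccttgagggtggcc
Rhob: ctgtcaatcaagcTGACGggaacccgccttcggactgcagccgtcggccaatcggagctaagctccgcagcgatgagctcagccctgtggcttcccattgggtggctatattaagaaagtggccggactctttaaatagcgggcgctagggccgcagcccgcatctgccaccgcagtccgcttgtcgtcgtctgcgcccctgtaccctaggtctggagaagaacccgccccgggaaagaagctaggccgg
TGACG stood in all 5 windows and in 16.6% of 19036 such windows of the table. The full element TGACGTCA stood in Maff, where its first base lies 51 bases before the gene start, and in 1.41% of all windows. It holds TGACG on both strands, so it is counted under both motifs. The CArG box stood in Egr1, at 105 and 83 bases before the start, and in 1.61% of all. TGANTCA, the AP-1 site, stood in 0 of the 5 and in 6.96% of all. These are matches of letters, not measured binding.

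Feedback inhibitors of signalling, which are usually induced with the early genes, gave 3 rises and 1 fall among 19 tested, with a median difference of 0.28. With FD22 replicate 2 left out the counts were 1 and 0. The MAP kinase phosphatase Dusp1 had 833, 409.7 and 564 at FD22 and 1244, 1068 and 1587 at P1 and rose by 1.14 ± 0.24 (SE; 2.21-fold, adjusted p = 0.00995), but was not called without FD22 replicate 2 or P1 replicate 3 (adjusted p = 0.0574 to 0.0664). Dusp5 and Spry1 were also called, but Dusp5 not without FD22 replicates 1 or 3 or P1 replicates 1, 2 or 3 (adjusted p = 0.0638 to 0.133) and Spry1 not without FD22 replicates 2 or 3 or P1 replicates 1, 2 or 3 (adjusted p = 0.0551 to 0.116). Rgs2, which switches off G-protein signals, fell by 0.44 ± 0.10 (SE; 1.36-fold, adjusted p = 0.019) and was not called without FD22 replicates 1 or 2 or P1 replicates 1 or 3 (adjusted p = 0.0585 to 0.0968). No member of this list was therefore called in every one of the 6 fits.

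Among ligands of the EGF receptor family, Areg and Nrg1 rose. Areg (amphiregulin), which activates the EGF receptor, gave 13.2, 14.8 and 17.9 at FD22 and 126, 177 and 127 at P1. The newborn arrays were all far above the fetal ones, and the rise was 2.83 ± 0.28 (SE; 7.11-fold, adjusted p = 9.57e-06). Nrg1 (neuregulin), a ligand of the ERBB3 and ERBB4 receptors that promotes surfactant synthesis in the fetal lung, gave 49.5, 28.1 and 66.5 at FD22 and 103, 169.7 and 218 at P1 and rose by 1.67 ± 0.28 (SE; 3.17-fold, adjusted p = 0.00216). These were the 2 called of 6 ligands. Hbegf, with 49.9, 62.4 and 60.6 at FD22 and 83.6, 97 and 93.6 at P1, was not called (adjusted p = 0.0825), and Tgfa had a difference of 0.51 ± 0.25. None of the 3 tested receptors was called by limma, and of all 9 genes 4 were higher and 0 lower at an unadjusted p under 0.05. Egfr and Erbb3 had differences of 0.27 ± 0.17 and 0.64 ± 0.24.

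Tnfrsf12a, the receptor of the cytokine TWEAK and an early gene of growth factor response, had 63.6, 43.2 and 38.3 at FD22 and 492, 479 and 344 at P1. All newborn arrays were far above all fetal ones, a rise of 3.05 ± 0.25 (SE; 8.29-fold, adjusted p = 1.88e-06). It was the only 1 called of 13 genes of the TNF receptor family, whose median was -0.24, and its ligand Tnfsf12 was not called. Among 25 genes of cytokines, chemokines and adhesion, 1 rose and 3 fell, and 2 rose and 0 fell without FD22 replicate 2. Il1r1, the signalling receptor of interleukin 1, gave 175, 158 and 158 at FD22 and 407, 248 and 330.4 at P1 and rose by 0.96 ± 0.17 (SE; 1.94-fold, adjusted p = 0.00317). The chemokine Cxcl12 fell by 0.83 ± 0.23 (SE; 1.78-fold, adjusted p = 0.0439) but was not called without FD22 replicates 2 or 3 or P1 replicates 1, 2 or 3 (adjusted p = 0.0551 to 0.13). The same held for the adhesion molecule Vcam1, which fell by 0.72 ± 0.19 (SE; 1.64-fold, adjusted p = 0.0354) and was not called without FD22 replicates 1, 2 or 3 or P1 replicates 1 or 3 (adjusted p = 0.0799 to 0.149). The alarmin Il33 fell by 0.69 ± 0.17 (SE; 1.61-fold, adjusted p = 0.0243) and was not called without FD22 replicates 1, 2 or 3 or P1 replicates 1 or 3 (adjusted p = 0.0601 to 0.121). Neutrophil chemoattractant Cxcl1 was scattered, with 59.3, 38.1 and 37.6 at FD22 and 119, 53.3 and 169 at P1 (adjusted p = 0.194). Ccl2, with 50.2, 146 and 62.3 at FD22 and 134, 224 and 283 at P1, was called only without FD22 replicate 2 (adjusted p = 0.023).

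Genes that answer to serum response factor and YAP, both of which are activated by stretch and actin tension, held 2 called rises among 25 and 0 falls (12 and 0 at an unadjusted p under 0.05), with a median of 0.28. Centring the arrays on their medians gave 4 rises and quantile normalization 3. Ccn2 (connective tissue growth factor) was at 878, 698 and 622 at FD22 and 2199, 2281 and 2180 at P1. The groups were far apart and tight, and the rise was 1.61 ± 0.14 (SE; 3.05-fold, adjusted p = 2.22e-06). F3 (tissue factor), which starts coagulation, gave 534, 504 and 313 at FD22 and 1027, 1361 and 975 at P1 and rose by 1.33 ± 0.18 (SE; 2.51-fold, adjusted p = 0.000299). Ccn1, the closest relative of Ccn2 in the list, gave 122, 95.6 and 41.6 at FD22 and 63.6, 277 and 195 at P1, which overlapped (adjusted p = 0.471). None of the 15 actin cytoskeleton genes was called, although 13 had differences above 0 and the lowest adjusted p was 0.0509.

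Hypoxia response genes held more falls than rises. Of 31 tested, 6 fell and 1 rose, and the median was -0.10, close to that of all genes. Ddit4, which restrains the growth kinase mTORC1 when oxygen is low, gave 1363, 948 and 902 at FD22 and 388, 265 and 224 at P1. The groups were far apart, and the fall was 1.87 ± 0.20 (SE; 3.65-fold, adjusted p = 1.81e-05). Ankrd37, a small hypoxia-induced gene, gave 148, 111 and 75.7 at FD22 and 27.5, 23.4 and 24.1 at P1 and fell by 1.89 ± 0.27 (SE; 3.72-fold, adjusted p = 0.000493). Egln3, an oxygen-dependent hydroxylase that marks HIF proteins for breakdown and is itself induced by HIF, gave 293, 238 and 222 at FD22 and 108, 109 and 118 at P1 and fell by 1.12 ± 0.16 (SE; 2.18-fold, adjusted p = 0.000447). P4ha1, a collagen prolyl hydroxylase, gave 1017, 817 and 849 at FD22 and 438, 366 and 421 at P1 and fell by 1.12 ± 0.17 (SE; 2.17-fold, adjusted p = 0.000673). The lipoprotein receptor Vldlr gave 324, 416 and 289.8 at FD22 and 135, 151 and 151 at P1 and fell by 1.19 ± 0.14 (SE; 2.28-fold, adjusted p = 8.31e-05). None of these 5 overlapped between stages. Ndrg1 fell by 1.01 ± 0.24 (SE; 2.01-fold, adjusted p = 0.0193) but was not called without FD22 replicates 1 or 2 or P1 replicate 3 (adjusted p = 0.0561 to 0.0793). The count of falls was 6 also without FD22 replicate 2, and 5 to 6 over all left-out lysates. The members differed without FD22 replicate 2: Ndrg1 was not called, whereas Vegfa, given below, was called lower.

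Other HIF targets were not called. Vegfa, the vascular growth factor, gave 1859, 997 and 1505 at FD22 and 1168, 1112 and 1079 at P1 and was not called (adjusted p = 0.367), and without FD22 replicate 2 it was called lower (adjusted p = 0.0381). The glucose transporter Slc2a1 gave 383, 398 and 339.9 at FD22 and 306, 227 and 250.3 at P1, a difference of -0.52 ± 0.17 (adjusted p = 0.1). Bnip3 and Car9 were not called and overlapped. Hif1a itself, with 822, 951 and 752 at FD22 and 683, 649 and 858 at P1, was not called, while Epas1, which encodes the HIF subunit of endothelium, rose by 0.48 ± 0.13 (SE; 1.39-fold, adjusted p = 0.0451) but was not called without FD22 replicates 1, 2 or 3 or P1 replicates 1, 2 or 3 (adjusted p = 0.0723 to 0.152). None of the 24 genes of glycolysis and pyruvate metabolism was called by limma, with 3 higher and 4 lower at an unadjusted p under 0.05, and their median was -0.09. Without P1 replicate 1, 1 of them was called lower, and without P1 replicate 2, 1 was called higher. Ldha, with 1281, 1324 and 1168 at FD22 and 1293, 1119 and 1239 at P1, and Pgk1, with 1412, 1474 and 1176 at FD22 and 1293, 1012 and 1222 at P1, overlapped between the stages.

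Enzymes of cholesterol synthesis held only falls among their calls. Of 26 tested genes 6 were called lower and 0 higher (13 and 0 at an unadjusted p under 0.05), and the median was -0.39. The 6 were all among the 17 enzymes of the pathway, of which 16 had a difference below 0. Mvd, the decarboxylase that makes isopentenyl diphosphate, gave 56.6, 53.1 and 20.7 at FD22 and 6.5, 9.0 and 8.1 at P1, with 1 fetal array nearer to the newborn ones than the other two, and fell by 1.78 ± 0.33 (SE; 3.43-fold, adjusted p = 0.00383). Fdft1 (squalene synthase), the first enzyme committed to sterols, gave 297, 354 and 289.5 at FD22 and 154, 169 and 152 at P1, which were tight in both stages, and fell by 0.96 ± 0.18 (SE; 1.94-fold, adjusted p = 0.00397). Idi1 gave 317, 462 and 299 at FD22 and 152, 213 and 213 at P1 and fell by 0.87 ± 0.20 (SE; 1.83-fold, adjusted p = 0.019), but was not called without FD22 replicate 2 or P1 replicate 1 (adjusted p = 0.0901 to 0.0979). Sqle, Dhcr7 and Lss fell by 0.94 ± 0.21 (SE; 1.92-fold, adjusted p = 0.0159), 0.93 ± 0.24 (SE; 1.9-fold, adjusted p = 0.0378) and 0.68 ± 0.18 (SE; 1.61-fold, adjusted p = 0.0401). Sqle was not called without FD22 replicates 1 or 2 or P1 replicates 2 or 3 (adjusted p = 0.0617 to 0.107), Dhcr7 not without FD22 replicates 1 or 2 or P1 replicates 1, 2 or 3 (adjusted p = 0.065 to 0.137) and Lss not without FD22 replicates 2 or 3 or P1 replicates 1 or 3 (adjusted p = 0.0578 to 0.164). FD22 replicate 2, the lysate with high liver genes, had the highest signal of the 6 arrays for Fdft1, Idi1, Sqle, Dhcr7 and Lss. Without it, 2 cholesterol genes were called in place of 6, and with P1 replicate 1 or 3 left out 3 were. With the 6 total RNA arrays alone 1 was called. The call of Mvd was lost with the 6 total RNA arrays alone (adjusted p = 0.115 for Mvd). The regulators Srebf2, Scap, Insig1 and Insig2 were not called.

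The window before Mvd is shown because its signal fell the most of the pathway, with CCAAT on either strand (ATTGG on the strand shown) in capitals, the site of NF-Y, which acts beside the sterol regulatory factor SREBP. It lies at chr19:67414975-67415224 on the minus strand.
Mvd: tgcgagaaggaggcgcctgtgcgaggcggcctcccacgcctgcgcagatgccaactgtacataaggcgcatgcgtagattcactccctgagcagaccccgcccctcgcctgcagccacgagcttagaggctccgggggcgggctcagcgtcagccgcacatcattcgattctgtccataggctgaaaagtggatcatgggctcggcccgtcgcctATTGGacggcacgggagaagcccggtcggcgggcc
CCAAT stood in 3 of the 4 called cholesterol genes that the table holds (Mvd, Idi1 and Lss) and in 34.3% of all windows. The sterol element TCACNCCAC stood in 0 of these 4 windows and in 0.972% of all. Neither count bears on whether a factor binds there.

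**Figure D3:**
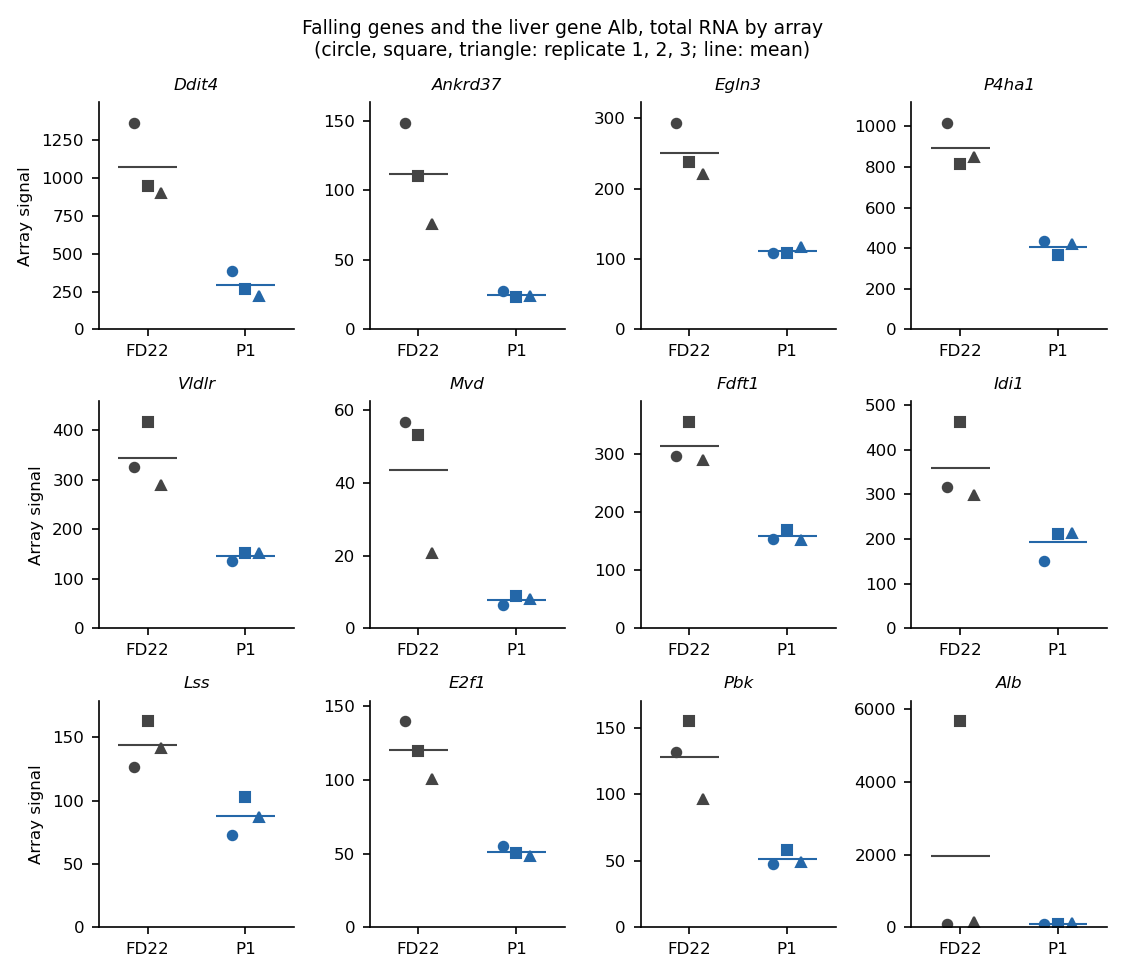
Array signal (vertical axis, linear, from 0) of 11 genes called lower at P1 and of the liver gene Alb, with FD22 in grey, P1 in blue, 1 symbol per replicate (circle, square, triangle for 1, 2, 3) and a line at the mean. The square of FD22 replicate 2 stands alone for Alb (5662) and is the highest of its group for Vldlr, Fdft1, Idi1, Lss and Pbk.

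Genes of fasting and of PPAR nuclear receptors, which turn cells to fat as fuel, gave 5 rises and 1 fall among 30 tested, with a median of 0.19. With FD22 replicate 2 left out there were 4 rises and 0 falls. Angptl4, a secreted inhibitor of lipoprotein lipase, gave 38.5, 8.4 and 16.8 at FD22 and 173, 371 and 168 at P1. The lowest newborn array was several times the highest fetal one, and the rise of 3.24 ± 0.39 (SE; 9.48-fold, adjusted p = 8.31e-05) was the greatest of any called gene with the constant of 5.5. With a constant of 26.3 it was 2.43, below the 2.64 of Tnfrsf12a and the 2.49 of Ier3. Cpt1a, which carries fatty acids into mitochondria, gave 199.6, 218 and 224 at FD22 and 669.8, 821 and 631 at P1 and rose by 1.69 ± 0.17 (SE; 3.23-fold, adjusted p = 9.73e-06). Acot1, a thioesterase of fatty acyl-CoA, gave 26, 26 and 38 at FD22 and 168, 277 and 105 at P1 and rose by 2.32 ± 0.34 (SE; 5-fold, adjusted p = 0.000626). The insulin receptor substrate Irs2 rose by 0.69 ± 0.14 (SE; 1.61-fold, adjusted p = 0.00894), but was not called without P1 replicate 3 (adjusted p = 0.0513). The lipase Pnpla2 gave 325, 193 and 218 at FD22 and 981, 457 and 438 at P1, where P1 replicate 1 was well above the other newborn arrays, and rose by 1.26 ± 0.29 (SE; 2.4-fold, adjusted p = 0.0171), but was not called without FD22 replicates 2 or 3 or P1 replicate 1 (adjusted p = 0.0621 to 0.0778). Its inhibitor G0s2 gave 863, 989 and 874 at FD22 and 334, 699.5 and 243 at P1 and fell by 1.22 ± 0.30 (SE; 2.34-fold, adjusted p = 0.0247), but was not called without FD22 replicates 1, 2 or 3 or P1 replicates 1 or 3 (adjusted p = 0.0604 to 0.125). Pdk4, which spares glucose, was not called (102, 89.9 and 66.5 at FD22 and 196, 121 and 149 at P1, adjusted p = 0.114). Of the enzymes of mitochondrial beta-oxidation itself, Acadm and Hadha, with differences of -0.01 ± 0.23 and 0.0017 ± 0.13, were not called. The isomerases Ech1 and Eci1 of that pathway, which stand outside the list, were called in opposite directions. Ech1 was higher at P1 (0.66 ± 0.11, SE, adjusted p = 0.00177) and Eci1 lower (-0.74 ± 0.11, SE, adjusted p = 0.000719).

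Of 29 genes of fatty acid and phospholipid synthesis, the pathway that feeds surfactant, 1 fell and 0 rose (2 and 3 at an unadjusted p under 0.05). The desaturase Fads1 fell by 0.69 ± 0.15 (SE; 1.61-fold, adjusted p = 0.0126) but was not called without FD22 replicate 2 or P1 replicates 1 or 3 (adjusted p = 0.0522 to 0.0711). Fasn, the fatty acid synthase, gave 1538, 1725 and 1381 at FD22 and 1501, 1175 and 1351 at P1 and overlapped. The desaturase Scd gave 649.9, 649 and 602 at FD22 and 767, 425 and 271 at P1, with newborn arrays both above and below the fetal ones. Without P1 replicate 2, 1 gene of the list was called higher. Both had been lower at FD19, at 1029 ± 14.3 (SD, n = 3) and 11.8 ± 3.06 (SD, n = 3). Glycogen use had no list of its own. Ppp1r3b, which brings protein phosphatase 1 to glycogen and so favours its storage, was among the greatest falls. Its signals were 478, 559.6 and 461 at FD22 and 128, 175 and 143 at P1, a fall of 1.72 ± 0.17 (SE; 3.28-fold, adjusted p = 9.57e-06), after 990 ± 92.1 (SD, n = 3) at FD19.

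Glucocorticoids, cAMP and the light cycle all change around birth. The counts of their lists stand beside 2.62% of all genes called higher and 2.31% called lower. Of 26 glucocorticoid response genes 3 rose and 1 fell, with a median of 0.03, and 2 rose and 1 fell without FD22 replicate 2. Fam107a, an actin-binding gene induced by glucocorticoids, gave 23.9, 4.6 and 5.9 at FD22 and 187, 85.3 and 69.9 at P1 and rose by 2.87 ± 0.43 (SE; 7.3-fold, adjusted p = 0.00069). Anxa1 (annexin A1), an anti-inflammatory mediator, gave 1029, 1257 and 1407 at FD22 and 2372, 1950.1 and 2433 at P1 and rose by 0.87 ± 0.16 (SE; 1.83-fold, adjusted p = 0.0032). The other rise was Dusp1, and the fall was Ddit4, both given above. Common markers of the response were not called: Tsc22d3 gave 1704, 1554 and 1532 at FD22 and 2076, 1176 and 1601 at P1, and Fkbp5 gave 466, 538 and 631 at FD22 and 779.5, 479 and 546 at P1. The receptor Nr3c1 had 769.8, 747 and 709 at FD22 and 686, 687 and 642 at P1, a difference of -0.14 ± 0.12.

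Among 20 genes of the cAMP response 4 rose (Areg, Nr4a1, Crem and Pde10a) and 2 fell (Pde4b and Rgs2), with a median of 0.16. Of the 6 only Areg and Nr4a1 kept their call whichever lysate was left out. Pde10a was not called without FD22 replicates 1 or 2 or P1 replicates 1, 2 or 3 (adjusted p = 0.0893 to 0.153) or with lysate as a random block (adjusted p = 0.0593), and Pde4b was not called without FD22 replicates 1 or 2 or P1 replicates 1, 2 or 3 (adjusted p = 0.0536 to 0.157). Without P1 replicate 3 the rises of this list numbered 2, and without FD22 replicate 2 it held 3 rises and 0 falls. In the list of 15 clock genes 2 rose and 0 fell (4 and 2 at an unadjusted p under 0.05), the repressors Cry1 and Cry2, by 0.69 ± 0.15 (SE; 1.61-fold, adjusted p = 0.0141) and 0.75 ± 0.19 (SE; 1.68-fold, adjusted p = 0.0275). Cry1 was not called without FD22 replicate 2 or P1 replicates 1 or 3 (adjusted p = 0.0593 to 0.0712), nor Cry2 without FD22 replicates 2 or 3 or P1 replicates 1 or 2 (adjusted p = 0.078 to 0.145). The clock list held 3 rises without FD22 replicate 1, 0 without FD22 replicate 2 and 1 without any of the 3 P1 replicates. Per1 gave 327, 218 and 312 at FD22 and 295, 214 and 238 at P1, which overlapped, and Dbp had a difference of -0.46 ± 0.29. Per2, with 236, 227 and 321 at FD22 and 326, 342 and 328 at P1, was called higher only without FD22 replicate 3 (adjusted p = 0.0408).

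The called genes of the cell cycle were lower at P1, apart from Ccnd1. Of 34 genes of DNA replication 9 fell and 1 rose, with a median of -0.44, and of 39 mitotic genes 8 fell and 0 rose (25 and 0 at an unadjusted p under 0.05), with a median of -0.57. The differences were below 0 for 31 and 36 of these genes. E2f1, which switches on S-phase genes, gave 139.7, 119 and 101 at FD22 and 54.9, 50.5 and 48.2 at P1, without overlap, and fell by 1.13 ± 0.19 (SE; 2.2-fold, adjusted p = 0.00216). Pbk, a mitotic kinase, gave 132, 155 and 96.2 at FD22 and 48, 58.3 and 49.1 at P1 and fell by 1.20 ± 0.19 (SE; 2.29-fold, adjusted p = 0.00148). These were the 2 falls that held in each of the 6 fits. Mki67, the proliferation antigen, gave 368, 471 and 369 at FD22 and 179.7, 267 and 237 at P1 and fell by 0.81 ± 0.17 (SE; 1.76-fold, adjusted p = 0.00842), but was not called without FD22 replicate 2 or P1 replicate 1 (adjusted p = 0.0561 to 0.0586). The helicase subunit Mcm3 fell by 0.76 ± 0.15 (SE; 1.69-fold, adjusted p = 0.00826) and was not called without FD22 replicate 2 (adjusted p = 0.0522). Also called lower were the replication genes Pold1, Ccne2, Cdt1, Pola1, Gins1, Mcm6 and Mcm4 and the mitotic genes Nusap1, Melk, Cdk1, Ect2 and Kif11. Bub1b, of the spindle checkpoint, fell by 1.08 ± 0.23 (SE; 2.11-fold, adjusted p = 0.0103) and was not called without P1 replicate 1 (adjusted p = 0.0724). FD22 replicate 2 was the highest array for Pbk, Mki67, Mcm3 and Bub1b. Without it 1 replication gene and 3 mitotic genes were called lower, without P1 replicate 1 the counts were 4 and 1, without P1 replicate 3 they were 3 and 3, and without FD22 replicate 3 they were 11 and 14. Mitotic falls numbered 4 without P1 replicate 2 and also with each array centred on its median. With the 6 total RNA arrays alone 1 replication gene and 1 mitotic gene were called lower.

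Mki67 was at 1166 ± 217 (SD, n = 3) at FD19, and its difference from FD19 to FD22 was -1.52 ± 0.17 (SE, adjusted p = 6.01e-06). E2f1 was at 178 ± 23.3 (SD, n = 3) at FD19, with a difference of -0.55 ± 0.19 (SE, adjusted p = 0.0589) to FD22. The earlier step uses the same FD22 arrays, so the steps are not independent. Pcna, the replication clamp, gave 982, 1174 and 797 at FD22 and 919, 900.3 and 989.9 at P1 and overlapped. Ccnd1 (cyclin D1), which carries growth signals into the cycle, went the other way: its signals were 633, 833 and 734 at FD22 and 1240.1, 1781 and 1724 at P1, and it rose by 1.09 ± 0.18 (SE; 2.13-fold, adjusted p = 0.00177). At FD19 it had been at 1169 ± 200 (SD, n = 3), above its FD22 level. Among 19 genes of growth arrest and p53, 1 fell and 0 rose (2 and 1 at an unadjusted p under 0.05). Gadd45g gave 458, 329 and 248 at FD22 and 189, 184 and 157 at P1 and fell by 0.91 ± 0.16 (SE; 1.87-fold, adjusted p = 0.0034), a call lost with the 6 total RNA arrays alone (adjusted p = 0.0644 for Gadd45g). Cdkn1a, the p21 inhibitor, gave 164, 174 and 129 at FD22 and 385, 262 and 247 at P1 and was not called (adjusted p = 0.146).

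Of 16 heat shock genes 3 rose and 0 fell (5 and 1 at an unadjusted p under 0.05), while the median was 0.01. Hspb1 (HSP27), a small chaperone of the actin cytoskeleton, gave 1128, 1175 and 914 at FD22 and 1898, 1932 and 2154 at P1 and rose by 0.90 ± 0.11 (SE; 1.86-fold, adjusted p = 0.000142). Hspa1a, the inducible HSP70, gave 129, 163 and 101 at FD22 and 297, 298 and 302 at P1, and the newborn arrays were almost equal. It rose by 1.18 ± 0.17 (SE; 2.27-fold, adjusted p = 0.000471). Hspb8 gave 138, 115 and 133 at FD22 and 340.4, 238 and 282 at P1 and rose by 1.11 ± 0.22 (SE; 2.16-fold, adjusted p = 0.006). The same 3 were called in each of the 6 fits. Other classical targets of heat shock factor were not called, among them Hsph1 (296, 336 and 292 at FD22 and 398, 363 and 331 at P1) and Dnajb1 (436, 496 and 313 at FD22 and 454, 433 and 405 at P1).

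Of 31 genes of endoplasmic reticulum and integrated stress 3 rose and 2 fell, and the median was 0.04. Over all genes 2.62% were called higher and 2.31% lower. Without FD22 replicate 2, 1 gene of this list was called higher and 1 lower. Slc7a5, a transporter of large neutral amino acids, gave 109, 91.8 and 99 at FD22 and 201, 166 and 192 at P1 and rose by 0.86 ± 0.16 (SE; 1.82-fold, adjusted p = 0.0032). Ppp1r15a (GADD34) rose by 0.65 ± 0.16 (SE; 1.57-fold, adjusted p = 0.0265), but was not called without FD22 replicate 2 or P1 replicates 1, 2 or 3 (adjusted p = 0.0598 to 0.144). The serine synthesis gene Psat1 fell by 0.64 ± 0.17 (SE; 1.56-fold, adjusted p = 0.0372), but was not called without FD22 replicates 1 or 2 or P1 replicates 2 or 3 (adjusted p = 0.0568 to 0.148). The other 2 called members, Atf4 and Vldlr, are given above. Hspa5, Ddit3 and Asns, the usual reporters of these pathways, were not called, with differences of -0.12 ± 0.19, -0.03 ± 0.21 and 0.26 ± 0.20. None of 24 antioxidant and metal response genes was called by limma, with 3 higher and 2 lower at an unadjusted p under 0.05. With arrays centred on their medians 2 were called higher, and 1 was with the 6 total RNA arrays alone or with the replicate block. Hmox1 (heme oxygenase) gave 324, 237 and 229 at FD22 and 425, 393 and 475 at P1, without overlap, but missed the threshold (0.71 ± 0.21, adjusted p = 0.0729). The superoxide dismutase Sod2 gave 282, 296 and 270.3 at FD22 and 311, 255 and 368 at P1 and catalase (Cat) 1781, 1733 and 1506 at FD22 and 1225, 1626 and 1410.2 at P1, and both overlapped.

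Polyamine genes gave 3 rises among 9 tested and 0 falls (3 and 2 at an unadjusted p under 0.05). With FD22 replicate 2 left out the counts were 1 and 0. Azin1, which protects ornithine decarboxylase from breakdown, gave 288, 306 and 325 at FD22 and 551, 577 and 509 at P1 and rose by 0.82 ± 0.12 (SE; 1.77-fold, adjusted p = 0.000687). Odc1, the decarboxylase itself, gave 455, 442 and 444 at FD22 and 984, 877 and 625 at P1 and rose by 0.86 ± 0.19 (SE; 1.81-fold, adjusted p = 0.0136), but was not called without FD22 replicate 2 or P1 replicate 1 (adjusted p = 0.0564 to 0.0863). Sat1, which starts polyamine breakdown, rose by 1.01 ± 0.24 (SE; 2.02-fold, adjusted p = 0.0188) and was not called without FD22 replicate 2 or P1 replicates 1 or 3 (adjusted p = 0.0726 to 0.106). Spermine synthase (Sms), at 214, 286 and 366 at FD22 and 103, 221 and 198 at P1, was not called. Without FD22 replicate 1, and likewise without P1 replicate 2, 1 gene of the list was called lower.

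**Figure D4:**
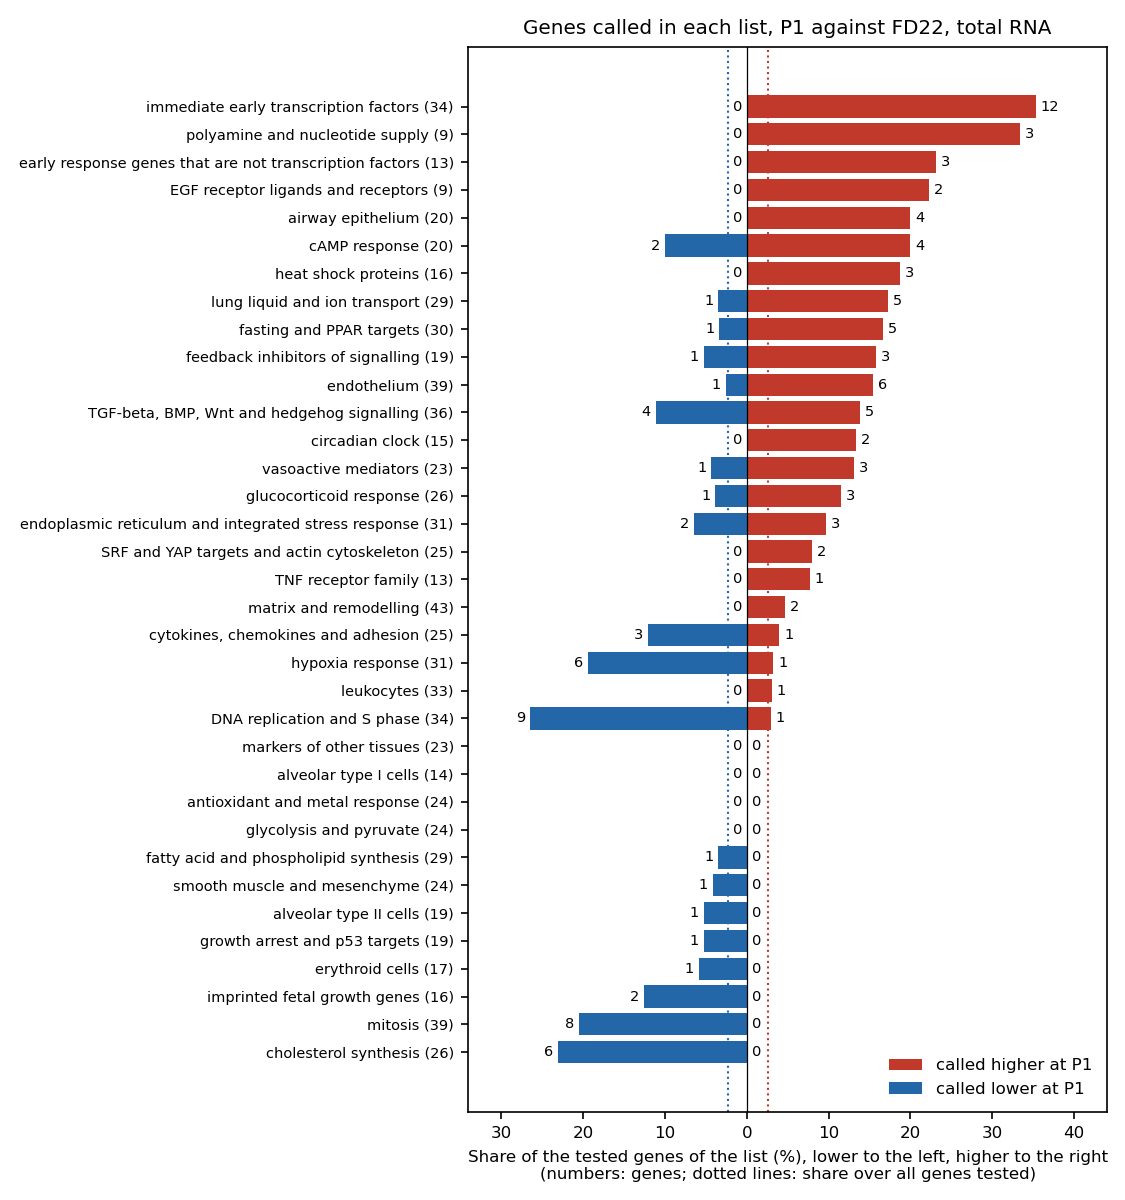
Share of the tested genes of each of 35 lists called higher (red, to the right) or lower (blue, to the left) at P1, with gene counts beside the bars, tested genes in brackets and the shares over all 11590 genes as dotted lines (2.62% and 2.31%). Immediate early factors have 12 rises of 34, while cholesterol synthesis, replication and mitosis have most of their calls on the left. The lists were chosen with earlier results of these data known, so the shares are a description.

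Calls among genes of the alveolar epithelium were near the share over all genes (4.94%). Of 19 genes of type II cells, which make surfactant, 1 fell and 0 rose (1 and 1 at an unadjusted p under 0.05), and the median was 0.04. Their summed signal was 45468 to 53957 at FD22 and 45900 to 51939 at P1. The 4 surfactant protein genes had differences between -0.07 and 0.21. Sftpb, the hydrophobic protein without which newborns cannot breathe, gave 3684, 4077 and 4350.3 at FD22 and 4498, 4989 and 4537 at P1: its groups did not overlap, but the difference of 0.21 ± 0.19 was about its SE (adjusted p = 0.633). The fall was that of Cebpa, a factor of type II maturation, by 0.69 ± 0.18 (SE; 1.61-fold, adjusted p = 0.0393), which was not called without FD22 replicates 1 or 2 or P1 replicates 1, 2 or 3 (adjusted p = 0.0678 to 0.152). The lipid transporter of lamellar bodies, Abca3, gave 1444, 1166 and 1453 at FD22 and 1149, 1196 and 898 at P1 and was not called. Sftpa1, by contrast, had moved by 2.15 ± 0.12 (SE, adjusted p = 9.26e-09) between FD19 and FD22.

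Of 14 markers of type I cells, the thin cells of gas exchange, 0 were called by limma, with 3 higher and 1 lower at an unadjusted p under 0.05. Without FD22 replicate 2, and likewise without P1 replicate 2, 1 member was called lower. Ager gave 1347, 1214 and 1337 at FD22 and 1659, 1640.1 and 1593 at P1, with newborn arrays above fetal ones, and a difference of 0.33 ± 0.25 (adjusted p = 0.57). Pdpn overlapped, with 1555, 1795 and 2065 at FD22 and 1749.6, 2218 and 2469 at P1. The water channel Aqp5 gave 147, 97.1 and 117 at FD22 and 26.4, 108 and 35.3 at P1, low in 2 newborn arrays but not in P1 replicate 2, and was called lower only without that lysate (adjusted p = 0.0355). Summed signals of the list were 20390 to 23110 at FD22 and 22667 to 24430 at P1.

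In the airway list 4 of 20 genes rose and 0 fell (5 and 0 at an unadjusted p under 0.05), and all 4 were keratins of simple epithelia, which form the intermediate filaments of many epithelial cells and not of airways alone. Krt8 gave 452, 442 and 442 at FD22 and 753, 953 and 907 at P1 and rose by 0.95 ± 0.15 (SE; 1.94-fold, adjusted p = 0.00101), and its partner Krt18 gave 238, 279 and 241 at FD22 and 496, 511 and 511 at P1 and rose by 0.99 ± 0.16 (SE; 1.98-fold, adjusted p = 0.0013). Krt7 gave 420.4, 336 and 485 at FD22 and 983, 1021 and 779 at P1 and rose by 1.16 ± 0.19 (SE; 2.24-fold, adjusted p = 0.00177). Krt19 rose by 0.59 ± 0.15 (SE; 1.51-fold, adjusted p = 0.0288), but was not called without FD22 replicates 1 or 3 or P1 replicates 2 or 3 (adjusted p = 0.0676 to 0.104). Krt8 and Krt18 had been higher at FD19 than at FD22, at 677 ± 42.6 (SD, n = 3) and 441 ± 66.7 (SD, n = 3). The club cell product Scgb1a1 was not called, at 5239, 5328 and 6635 at FD22 and 5002, 5988 and 5773 at P1.

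Lung liquid and ion transport held 5 rises and 1 fall among 29 tested genes, with a median of 0.18. Scaling moved this count, to 8 rises with arrays centred on their medians and to 3 rises and 2 falls with quantile normalization. Cftr, the chloride channel of liquid secretion, gave 369, 378 and 382 at FD22 and 140.3, 215 and 193 at P1, with the 3 fetal arrays close together. It fell by 1.04 ± 0.18 (SE; 2.06-fold, adjusted p = 0.00283), and had been at 205 ± 39.3 (SD, n = 3) at FD19. The secretory sodium-potassium-chloride carrier Slc12a2 gave 1206, 1299 and 1301 at FD22 and 1217, 1086 and 1173 at P1 and was not called. Of the 3 subunits of the sodium channel ENaC, through which liquid is absorbed, none was called. Scnn1a gave 694, 484 and 544 at FD22 and 1072, 785 and 801 at P1, and Scnn1g gave 321, 284 and 285 at FD22 and 181, 178 and 167 at P1: neither overlapped, the alpha subunit being higher and the gamma subunit lower at P1. Their differences were 0.62 ± 0.26 (adjusted p = 0.223) and -0.74 ± 0.21 (adjusted p = 0.0524). Scnn1b, with 144, 175 and 239 at FD22 and 114, 154 and 170.2 at P1, overlapped. None of the 9 tested sodium pump and regulator genes was called, the nearest being Atp1b3 at 745, 656 and 746 at FD22 and 1001, 916 and 927 at P1 (adjusted p = 0.052).

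Water channels and tight junctions made up the rises. Aqp3, an aquaglyceroporin of airway and basal cells, gave 42.4, 47 and 38 at FD22 and 145, 168 and 116 at P1, without overlap, a rise of 1.62 ± 0.23 (SE; 3.07-fold, adjusted p = 0.000401). Cldn4, a claudin that seals epithelia against sodium, gave 84.8, 81.4 and 83.1 at FD22 and 319, 285 and 214 at P1 and rose by 1.63 ± 0.17 (SE; 3.09-fold, adjusted p = 1.81e-05), from fetal arrays that were almost equal. Aqp1, the water channel of capillaries, rose by 0.66 ± 0.18 (SE; 1.57-fold, adjusted p = 0.0418), but was not called without FD22 replicates 2 or 3 or P1 replicates 1, 2 or 3 (adjusted p = 0.0609 to 0.208). Cldn3 rose by 0.68 ± 0.15 (SE; 1.61-fold, adjusted p = 0.014) and was not called without FD22 replicates 1 or 2 or P1 replicates 1, 2 or 3 (adjusted p = 0.0516 to 0.0759), and the endothelial Cldn5 rose by 0.49 ± 0.13 (SE; 1.41-fold, adjusted p = 0.0397) and was not called without FD22 replicates 1 or 2 or P1 replicates 1, 2 or 3 (adjusted p = 0.0832 to 0.145). Without FD22 replicate 2 the rises of this list numbered 2, and the same without any of the 3 P1 replicates. Without FD22 replicate 1 there were 3. Cldn18, the claudin of alveolar cells, was not called (0.32 ± 0.13, adjusted p = 0.218).

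**Figure D5:**
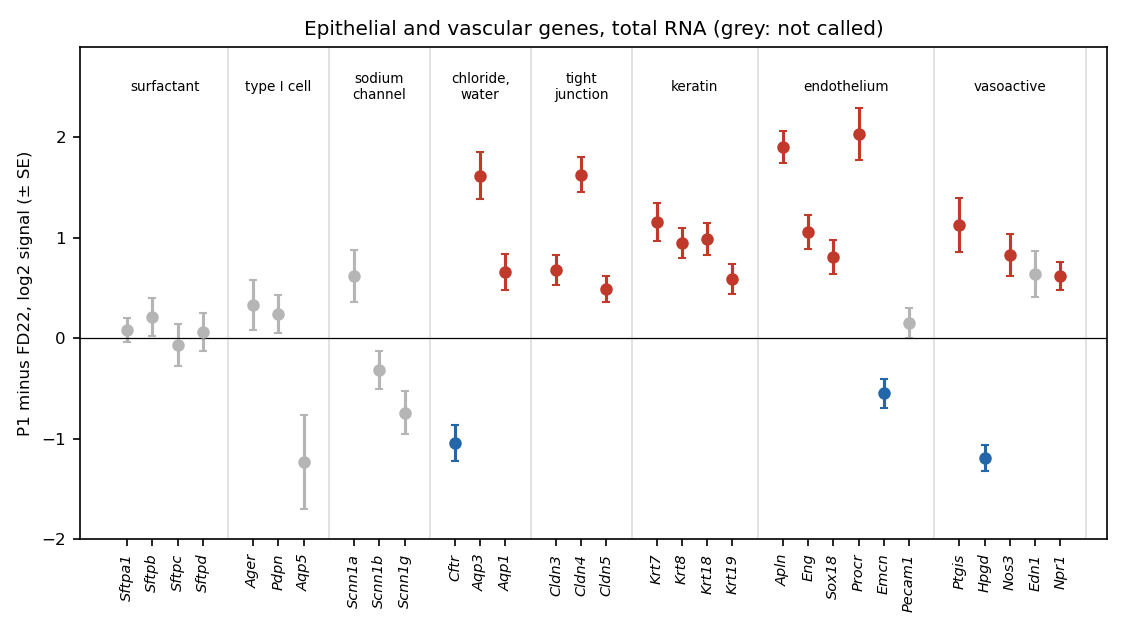
Difference between P1 and FD22 (log2, points, with bars of 1 SE of the fit) for epithelial and vascular genes grouped by role, called higher in red, called lower in blue and not called in grey. Surfactant genes lie between -0.07 and 0.21, while Cftr (-1.04) and Hpgd (-1.19) lie below and Aqp3 (1.62), Cldn4 (1.63), Apln (1.90) and Procr (2.03) above.

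Endothelial genes gave 6 rises and 1 fall among 39 tested, with a median of 0.20, and their summed signal was 16799 to 17646 at FD22 and 19735 to 20797 at P1, without overlap. Apln (apelin), a vasodilator peptide of endothelial cells, gave 262, 197 and 216 at FD22 and 849, 854 and 852 at P1. The newborn arrays were almost equal, and the rise was 1.90 ± 0.16 (SE; 3.74-fold, adjusted p = 1.96e-06). Eng (endoglin), a co-receptor of TGF-beta and BMP9, gave 481, 333 and 305 at FD22 and 761, 704 and 848 at P1 and rose by 1.06 ± 0.17 (SE; 2.09-fold, adjusted p = 0.00117). Procr, the endothelial receptor of protein C and not a member of the list, gave 93.3, 119.9 and 134 at FD22 and 386, 534 and 555 at P1 and rose by 2.03 ± 0.26 (SE; 4.09-fold, adjusted p = 0.000149). The factor Sox18 rose by 0.81 ± 0.17 (SE; 1.75-fold, adjusted p = 0.00859) and was not called without P1 replicate 3 (adjusted p = 0.0531). Egfl7 rose by 0.73 ± 0.17 (SE; 1.66-fold, adjusted p = 0.0188) and was not called without FD22 replicates 1 or 2 or P1 replicates 1 or 2 (adjusted p = 0.0528 to 0.0882). Nos3, the endothelial nitric oxide synthase, gave 55.2, 51.8 and 47.8 at FD22 and 88.5, 98.2 and 101 at P1 and rose by 0.83 ± 0.21 (SE; 1.78-fold, adjusted p = 0.0321), but was not called without FD22 replicates 1, 2 or 3 or P1 replicates 1, 2 or 3 (adjusted p = 0.0631 to 0.119). Icam2 rose by 0.48 ± 0.13 (SE; 1.39-fold, adjusted p = 0.0411) and was not called without FD22 replicates 1, 2 or 3 or P1 replicates 1, 2 or 3 (adjusted p = 0.0597 to 0.164). Emcn (endomucin), a mucin of venous and capillary cells, gave 971, 875 and 1041 at FD22 and 744, 634 and 594 at P1 and fell by 0.55 ± 0.14 (SE; 1.46-fold, adjusted p = 0.0284), but was not called without FD22 replicates 1, 2 or 3 or P1 replicates 2 or 3 (adjusted p = 0.052 to 0.101). The pan-endothelial marker Pecam1 overlapped, with 661, 650.1 and 717 at FD22 and 752, 786 and 708 at P1. Rises numbered 4 without FD22 replicates 1 or 3 and 3 without any other lysate. Of the 9 genes listed under tip cells and angiogenesis 0 were called, but Apln was listed under capillary and flow response and is not among them.

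Vasoactive mediators, which set the fall of pulmonary vascular resistance at birth, gave 3 rises and 1 fall among 23. Over all genes 2.62% were called higher and 2.31% lower. Hpgd, the enzyme that inactivates prostaglandins in the lung, gave 376, 364 and 334 at FD22 and 148, 154 and 158 at P1, tight and far apart, and fell by 1.19 ± 0.13 (SE; 2.29-fold, adjusted p = 3.19e-05). It had been at 207 ± 15.3 (SD, n = 3) at FD19. Ptgis (prostacyclin synthase), which makes a dilator prostaglandin, gave 103, 91.9 and 70.4 at FD22 and 201, 193 and 198 at P1 and rose by 1.13 ± 0.27 (SE; 2.19-fold, adjusted p = 0.0209), but was not called without FD22 replicate 3 or P1 replicates 1, 2 or 3 (adjusted p = 0.0568 to 0.0828). Npr1, a receptor of natriuretic peptides, rose by 0.62 ± 0.14 (SE; 1.54-fold, adjusted p = 0.0185) and was not called without FD22 replicate 2 or P1 replicates 1 or 3 (adjusted p = 0.0554 to 0.0956). Nos3 was the other rise. Edn1 (endothelin), a constrictor, gave 163, 131 and 161 at FD22 and 252, 200 and 271 at P1, higher at P1 in all arrays, and was not called (adjusted p = 0.134). The rises of this list numbered 3 without FD22 replicate 1, 1 without FD22 replicates 2 or 3 or P1 replicate 2, and 0 without P1 replicates 1 or 3. Without FD22 replicate 2 its falls numbered 3. The natriuretic peptide gene Nppa, which the heart atria express, gave 465, 112 and 850.1 at FD22 and 97, 73.5 and 145 at P1 and was not called.

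In the mesenchyme, Wnt2, the Wnt ligand of distal lung mesenchyme, gave 536, 498 and 387 at FD22 and 186, 259.7 and 202 at P1 and fell by 1.11 ± 0.20 (SE; 2.16-fold, adjusted p = 0.00283). It was the only 1 called of 24 smooth muscle and mesenchymal genes, among them 11 contractile genes. Without FD22 replicate 2, 1 of the 24 was called higher. Of 43 matrix genes 2 rose and 0 fell (7 and 2 at an unadjusted p under 0.05). Their calls were at a share near that of all genes (4.94%), and 0 rose with the 6 total RNA arrays alone. Timp1, an inhibitor of matrix proteases, rose by 0.61 ± 0.13 (SE; 1.53-fold, adjusted p = 0.0102) and was not called without P1 replicate 3 (adjusted p = 0.0665). Lox, which crosslinks elastin and collagen, gave 1802, 1818 and 1631 at FD22 and 2410.4, 2193 and 2361 at P1 and rose by 0.41 ± 0.10 (SE; 1.33-fold, adjusted p = 0.0323), but was not called without FD22 replicates 1, 2 or 3 or P1 replicates 1 or 3 (adjusted p = 0.0612 to 0.112). Elastin (Eln) gave 2291, 1818 and 1831 at FD22 and 2796, 2458 and 2239 at P1 and was not called (adjusted p = 0.223).

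Signalling genes of the TGF-beta, BMP, Wnt and hedgehog pathways moved in both directions, with 5 rises and 4 falls among 36 and a median of -0.01. Lrrc32 (GARP), which holds latent TGF-beta on the cell surface, gave 6.0, 6.5 and 12.4 at FD22 and 129, 67.4 and 84.5 at P1 and rose by 2.83 ± 0.30 (SE; 7.1-fold, adjusted p = 1.81e-05). Bmp2 and Bmp5 moved apart: Bmp2 gave 100.3, 104 and 112 at FD22 and 265, 219 and 199 at P1 and rose by 1.06 ± 0.19 (SE; 2.08-fold, adjusted p = 0.00304), whereas Bmp5 gave 273, 259 and 253 at FD22 and 124, 159 and 154 at P1 and fell by 0.83 ± 0.14 (SE; 1.78-fold, adjusted p = 0.00177). Wnt2, above, and Hhip, an inhibitor of hedgehog signals, were also called lower, but Hhip not without FD22 replicates 1 or 2 or P1 replicates 2 or 3. Lef1, a factor of Wnt targets, fell by 0.60 ± 0.12 (SE; 1.51-fold, adjusted p = 0.00763) and was not called without P1 replicate 3 (adjusted p = 0.0545). Smad6, the inhibitory Smad, rose by 0.96 ± 0.22 (SE; 1.95-fold, adjusted p = 0.019) and was not called without FD22 replicates 2 or 3 or P1 replicates 1 or 3 (adjusted p = 0.0589 to 0.0858). Skil rose by 0.56 ± 0.12 (SE; 1.47-fold, adjusted p = 0.0126) and was not called without FD22 replicates 1 or 2 or P1 replicate 3 (adjusted p = 0.0516 to 0.0763), and Id4 rose by 0.82 ± 0.20 (SE; 1.76-fold, adjusted p = 0.0221) and was not called without FD22 replicates 1 or 2 or P1 replicates 1 or 3 (adjusted p = 0.0527 to 0.0953). Rises of the list numbered 2 without FD22 replicate 2 or P1 replicate 3 and 3 without FD22 replicate 1 or P1 replicate 1. Without P1 replicate 3 the falls were 2. Tgfb1 itself gave 242, 167 and 192 at FD22 and 238, 173 and 187 at P1, a difference near 0.

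Genes of blood and immune cells were called at a share near that of all genes (4.94%). Of 33 leukocyte genes 1 rose and 0 fell (5 and 1 at an unadjusted p under 0.05). Cd14, the endotoxin co-receptor of monocytes, gave 157, 139 and 151 at FD22 and 264, 258 and 368 at P1 and rose by 0.95 ± 0.20 (SE; 1.93-fold, adjusted p = 0.0103), but was not called without FD22 replicate 2 or P1 replicate 3 (adjusted p = 0.0527 to 0.0528). The neutrophil genes S100a8 and S100a9 overlapped, with 587, 656 and 516 at FD22 and 911, 491 and 626 at P1 and 936, 1137 and 1255 at FD22 and 2006, 1025 and 1382 at P1, and P1 replicate 1 was the highest for both. Of 17 erythroid genes only Hbe1, an embryonic globin, was called. It gave 326, 682 and 753 at FD22 and 171, 139.6 and 377 at P1, with 1 newborn array above the lowest fetal one, and fell by 1.38 ± 0.34 (SE; 2.61-fold, adjusted p = 0.0273), but was not called without FD22 replicates 2 or 3 or P1 replicates 1 or 2 (adjusted p = 0.113 to 0.135). Among 16 imprinted genes of fetal growth 2 fell and 0 rose (4 and 2 at an unadjusted p under 0.05). Mest gave 1905, 2221 and 1789 at FD22 and 1146, 1184 and 1388 at P1 and fell by 0.67 ± 0.13 (SE; 1.59-fold, adjusted p = 0.00549), a call lost with the arrays numbered 2 and 3 alone (adjusted p = 0.0712 for Mest). Ndn fell by 0.89 ± 0.19 (SE; 1.85-fold, adjusted p = 0.0122) and was not called without FD22 replicate 2 or P1 replicates 2 or 3 (adjusted p = 0.0503 to 0.0788). Igf2, the fetal growth factor, overlapped, with 1488, 1522 and 1441 at FD22 and 1612, 1287 and 1441 at P1, after 3077 ± 612 (SD, n = 3) at FD19. The imprinted falls numbered 3 without FD22 replicate 3 and 1 without FD22 replicate 2 or P1 replicates 2 or 3.

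The remaining genes with the greatest differences belonged to no list above. Dll1, a ligand of Notch receptors, gave 1.9, 23.4 and 8.1 at FD22 and 96.6, 84.6 and 58.6 at P1, with dim fetal signals, and rose by 2.55 ± 0.42 (SE; 5.87-fold, adjusted p = 0.00152). Fpgs, which keeps folates in the cell by adding glutamate to them, gave 254, 188 and 234 at FD22 and 879, 907 and 901 at P1 and rose by 1.97 ± 0.17 (SE; 3.93-fold, adjusted p = 2.98e-06). Its newborn arrays were close together. Upp1 (uridine phosphorylase) gave 81.8, 53.6 and 17.1 at FD22 and 222, 157 and 213 at P1 and rose by 2.04 ± 0.38 (SE; 4.1-fold, adjusted p = 0.00394). Pkp1, a plakophilin of desmosomes, rose by 2.17 ± 0.37 (SE; 4.51-fold, adjusted p = 0.00197), a call lost with the 6 total RNA arrays alone (adjusted p = 0.0539 for Pkp1). The drug transporter Abcb1a, dim in the fetus, gave 3.9, 0.9 and 0.6 at FD22 and 29.9, 23.2 and 46.9 at P1 and rose by 2.39 ± 0.54 (SE; 5.25-fold, adjusted p = 0.0158), but was not called without P1 replicates 1 or 3 (adjusted p = 0.0897 to 0.122).

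Among the falls, Depp1, a gene controlled by FOXO factors, gave 1489.5, 804 and 1040 at FD22 and 430, 350.4 and 289.9 at P1 and fell by 1.60 ± 0.25 (SE; 3.02-fold, adjusted p = 0.00101). Trpc2, a cation channel gene, gave 62.3, 73.3 and 71.2 at FD22 and 27.1, 8.2 and 14.8 at P1 and fell by 1.83 ± 0.29 (SE; 3.56-fold, adjusted p = 0.0013). The ubiquitin ligase gene Trim45 gave 68.6, 47.8 and 69 at FD22 and 22.6, 15.5 and 6.3 at P1 and fell by 1.80 ± 0.28 (SE; 3.48-fold, adjusted p = 0.00112), a call lost with the 6 total RNA arrays alone (adjusted p = 0.0559 for Trim45). Several of the greatest falls rested on few arrays. Veph1 gave 214, 176 and 112 at FD22 and 97.2, 11.5 and 13.4 at P1, with P1 replicate 1 well above the other newborn arrays, and fell by 2.38 ± 0.63 (SE; 5.22-fold, adjusted p = 0.038), but was not called without FD22 replicates 1, 2 or 3 or P1 replicates 2 or 3 (adjusted p = 0.0622 to 0.154). Mesp1 fell by 1.91 ± 0.44 (SE; 3.75-fold, adjusted p = 0.0184) and was not called without FD22 replicate 1 or P1 replicates 1, 2 or 3 (adjusted p = 0.0609 to 0.0918). Irak4, a kinase of interleukin 1 and Toll-like receptors, fell by 1.62 ± 0.42 (SE; 3.08-fold, adjusted p = 0.0328) and was not called without FD22 replicates 2 or 3 or P1 replicates 2 or 3 (adjusted p = 0.107 to 0.132). Mlip fell by 1.39 ± 0.36 (SE; 2.62-fold, adjusted p = 0.0373) and was not called without FD22 replicates 1, 2 or 3 or P1 replicates 2 or 3 (adjusted p = 0.0756 to 0.163). Tle6, a corepressor gene, gave 56.3, 55.5 and 38.8 at FD22 and 5.6, 8.0 and 27.1 at P1 and fell by 1.70 ± 0.32 (SE; 3.25-fold, adjusted p = 0.00412). Cacna1i gave 70.4, 47.9 and 46.8 at FD22 and 28, 9.9 and 9.9 at P1 and fell by 1.58 ± 0.28 (SE; 2.99-fold, adjusted p = 0.00313). The calls of Tle6 and Cacna1i were lost with the 6 total RNA arrays alone and with the replicate number as a block. That of Tle6 was lost also with the arrays numbered 2 and 3 only. The transcripts annotated as LOC100911506 and Ifgga2l1 completed the greatest falls, but LOC100911506 was not called without FD22 replicates 1, 2 or 3 or P1 replicates 1 or 3 (adjusted p = 0.0551 to 0.0807) and Ifgga2l1 not without FD22 replicates 1 or 2 (adjusted p = 0.0687 to 0.0819).

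RNA from large polysomes of the same lysates is set beside total RNA here for some of the leading genes. These arrays share their lysates with the total RNA, so the values stand beside each other and are no second test. The polysomal difference between P1 and FD22 was 3.12 ± 0.39 (SE, adjusted p = 8.49e-05) for Angptl4 and 3.03 ± 0.28 (SE, adjusted p = 8.85e-06) for Areg, where total RNA had 3.24 ± 0.39 and 2.83 ± 0.28. For Ier3 it was 1.41 ± 0.19 (SE, adjusted p = 0.000133), where total RNA had 2.66 ± 0.19. Lrrc32 had 1.69 ± 0.30 (SE, adjusted p = 0.00189) against 2.83 ± 0.30. Acot1 had 3.53 ± 0.34 (SE, adjusted p = 8.85e-06) against 2.32 ± 0.34. Among the falls, Ddit4 had -1.77 ± 0.20 (SE, adjusted p = 2.13e-05) against -1.87 ± 0.20, and Egln3 had -1.69 ± 0.16 (SE, adjusted p = 8.85e-06) against -1.12 ± 0.16. Mvd had -0.70 ± 0.33 (SE, adjusted p = 0.219), which was not called. Some of the greatest falls in total RNA were near 0 in polysomal RNA: Mesp1 had -0.12 ± 0.44 (SE, adjusted p = 0.922) against -1.91 ± 0.44, Irak4 had -0.19 ± 0.42 (SE, adjusted p = 0.862) against -1.62 ± 0.42, and Mlip had -0.12 ± 0.36 (SE, adjusted p = 0.905) against -1.39 ± 0.36. Cacna1i, a calcium channel gene, had a difference of the opposite sign, 0.23 ± 0.28 (SE, adjusted p = 0.717) against -1.58 ± 0.28. Mesp1, Irak4, Mlip and Cacna1i were taken from the greatest falls in total RNA, a choice that by itself favours smaller differences in a second measure. Their mean total RNA signals at P1 were dim, at 23.2, 10.7, 12.5 and 15.9, below the filter value of 40.8. Insig1, which was not called in total RNA (-0.41 ± 0.16), fell in polysomal RNA by 1.56 on the log2 scale (adjusted p = 1.32e-05). The difference between the RNA kinds was not tested here.

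The step before birth differed from gene to gene. Several leading genes had no called difference between FD19 and FD22: Ier3 was at 131 ± 32 (SD, n = 3) at FD19, Ccn2 at 733 ± 80.2 (SD, n = 3) and Procr at 139 ± 32.6 (SD, n = 3). Others had already moved before birth in the same direction, such as Klf4 by 0.83 ± 0.18 (SE, adjusted p = 0.00304), F3 by 0.81 ± 0.18 (SE, adjusted p = 0.00434) and Apln by 0.69 ± 0.16 (SE, adjusted p = 0.00516). A further set had moved the opposite way. Depp1 moved by 1.20 ± 0.25 (SE, adjusted p = 0.00232), Hpgd by 0.78 ± 0.13 (SE, adjusted p = 0.00044) and Cftr by 0.88 ± 0.18 (SE, adjusted p = 0.00234) before birth and then fell, while Cldn4 moved by -0.99 ± 0.17 (SE, adjusted p = 0.000496) and then rose. Both steps share the FD22 arrays, so a high or low FD22 value moves them in opposite directions, and no test across the steps was made.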

How the data were processed

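Affymetrix Rat Genome 230 2.0 arrays were hybridised with total and polysomal RNA of 9 lysates, 3 litters at each of 3 stages, 18 arrays in all. The deposited values are signal intensity on a linear scale, made by the authors with GCOS 1.4, per the submitters' processing notes; the signal algorithm is not given in the sources used here. The 2% trimmed mean was 150.03 to 150.04 in every array of the table. Array medians differed by at most 1.424 times, under the limit of 1.5 set for quantile normalization, so no further scaling was done.

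Of 31099 probe sets, 57 controls were left out. The constant 5.5 (10th percentile of all values) was added before log2, and probe sets above 40.8 (40th percentile) in at least 3 of 18 arrays were kept, which left 21675. Probe sets were named from the platform annotation (20826 with 1 gene, 436 with several, 9780 with none), and a gene is its brightest kept probe set. limma 3.58.1 in R 4.3.3 fitted 6 group means to all 18 arrays (12 residual degrees of freedom, eBayes with a variance trend), and P1 total minus FD22 total was tested with Benjamini-Hochberg adjustment over all 21675. Total and polysomal arrays share lysates. A fit with lysate as a random block (correlation 0.31) called 870. Leaving out a lysate removed both its arrays. Summaries used Python 3.11.15 with pandas 2.3.3 and numpy 2.4.6, and plots used matplotlib 3.10.9.

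Alternatives were constants of 0.9 and 26.3, no filter or one at 96.4, quantile normalization, median centring, no variance trend, 6 or 9 arrays, the lysate or replicate block, left-out lysates, and arrays numbered 2 and 3 only. The fit was tested on simulated data with independent noise in each array, where 3.81% of calls were false. Correlation between arrays of a lysate was not simulated, so this share may not hold for the real arrays. The text names a selection of the 15 greatest rises and falls among called genes whose arrays do not overlap, up to 8 called members of each list by smallest p, and genes marked in the lists as always named, called or not. List members outside this rule that were not called are quoted as values, chosen for their known roles, Klf10 and Hhip and some cell cycle genes are named as calls only, and the genes of the closing section were chosen after their values were seen. Members, lists and rules were chosen with earlier results of these data known. Promoter windows came from a RefSeq table (27457 entries), of which 19036 hold the 250 bases up to the gene start.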

Additional observations from a re-analysis of the deposited data

How the results depend on the processing

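The count of 861 called probe sets fell to 352 with the 6 total RNA arrays alone (4 residual degrees of freedom against 12) and to 394 with the arrays numbered 2 and 3 only, and it ranged from 447 to 721 with 1 lysate left out. With the replicate number as a replicate block on the 6 arrays it was 474. The numbers gave correlations of 0.42, 0.092 and 0.094 between FD22 and P1 arrays, and 2 of 6 arrays correlated best with their own number, so they were not taken as pairs. The 0.42 of the arrays numbered 1 lay within the range of FD22 total and polysomal arrays of the same lysate (0.186 to 0.488). What the arrays numbered 1 share was not tested. The other alternatives (constant, filter, scaling, variance trend, 9 arrays, lysate as random block) gave 679 to 897. None of the 194 named genes changed sign while called. Of 132 called, 55 were called under all alternatives that tested them. In simulated data with the spread of each probe set the fit recovered 87.9% of changes of 4-fold, 56.7% at 2-fold and 7.46% at 1.5-fold. The simulated noise was independent between arrays, unlike that of arrays sharing a lysate.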

Other observations

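Of the called genes, 136 were called in the main setting and in each of the 18 alternative settings tried, 100 higher and 36 lower at P1, and 88 of them (64 higher, 24 lower) belong to none of the lists. The genes below were chosen from these 88 after their values were seen, so they are a description. Slc1a5, which takes up glutamine, gave 77.1, 70.4 and 98.1 at FD22 and 205, 237 and 259.8 at P1 and rose by 1.46 ± 0.20 (SE, adjusted p = 0.000307), and Slc7a1, which takes up arginine and lysine, rose by 0.98 ± 0.16 (SE, adjusted p = 0.00177). The tRNA synthetases Gars1 and Yars1 rose by 0.77 ± 0.15 and 0.91 ± 0.16 (SE, adjusted p = 0.00662 and 0.00299). S1pr1, a receptor that tightens endothelial junctions, gave 1198, 1194 and 1135 at FD22 and 2022, 1780.3 and 1934 at P1 and rose by 0.70 ± 0.12 (SE, adjusted p = 0.00287). Plat, the tissue plasminogen activator, rose by 0.93 ± 0.18 (SE, adjusted p = 0.00446). Rbm3, an RNA-binding protein induced by mild cold, gave 1519.5, 1625 and 1117 at FD22 and 2612, 2383 and 2209 at P1 and rose by 0.77 ± 0.12 (SE, adjusted p = 0.00139). Lmna, which encodes nuclear lamins A and C, rose by 1.26 ± 0.24 (SE, adjusted p = 0.00432).

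Among the falls, Gys1, the glycogen synthase of muscle and other tissues, gave 381, 282 and 290 at FD22 and 195, 155 and 133 at P1 and fell by 0.96 ± 0.17 (SE, adjusted p = 0.00336). Pik3r1, a regulatory subunit of PI3 kinase, gave 651, 550.3 and 589 at FD22 and 300.4, 206 and 234 at P1 and fell by 1.27 ± 0.17 (SE, adjusted p = 0.000281). The mesenchymal genes Meox2, a homeobox factor, and Cdh11, a cadherin, fell by 1.06 ± 0.11 and 0.85 ± 0.10 (SE, adjusted p = 1.81e-05 and 9.81e-05). Foxp2, a forkhead factor of distal lung epithelium, gave 441, 526 and 386 at FD22 and 244, 291 and 251 at P1 and fell by 0.76 ± 0.12 (SE, adjusted p = 0.00131). Within each of these genes the 3 fetal and 3 newborn arrays did not overlap, which held for 569 of all 572 called genes. It therefore follows from how they were chosen and adds nothing to their calls.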
